A study of Mus musculus with 40 samples.

Results

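Cytosolic ribosomal protein genes were taken as all array probes whose gene symbol is Rpl or Rps followed by a number and optional letters, together with Rplp0, Rplp1, Rplp2 and Rpsa, with S6 kinases and pseudogenes left out. The rule found 84 of 25697 probes, which stand for 66 of 16593 named genes. Of these, 59 genes passed a filter on dim probes (detection p-value under 0.05 on at least 5 arrays of a fit), or 58 in small intestine alone. They comprise 22 proteins of the small subunit, 32 of the large subunit and 5 paralogs or related proteins under the same name pattern (Rpl22l1, Rpl36al, Rps27l, Rpl7l1 and Rps19bp1). Rpl7l1 and Rps19bp1 are named after ribosomal proteins and are not themselves structural proteins of the cytosolic ribosome. The 7 genes that did not pass were Rpl17, Rpl39l, Rpl3l, Rpl6, Rplp2, Rps23 and Rps23rg1.

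The samples were colon and small intestine of 20 female mice aged 9 weeks, gavaged with 200 µl of VSL#3 (a probiotic preparation of several bacterial strains) or of PBS, the control, 3 times a week for 4 weeks. The groups were VSL#3 BALB/c, PBS BALB/c, VSL#3 C57BL/6 and PBS C57BL/6, with 5 mice each and both tissues of every mouse, so that 8 groups of 5 arrays resulted. BALB/c mice came from Janvier and C57BL/6 mice from Charles River, so that strain and supplier cannot be told apart. Values are normalized log2 signals of whole tissue on Illumina MouseRef-8 arrays. In such tissue, fewer cells of a type and less RNA per cell cannot be told apart.

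The ribosome joins a small subunit, which reads the mRNA, to a large subunit, which forms the peptide bond, and each carries ribosomal RNA with a set of small, mostly basic proteins. The genes for these proteins are expressed in nearly every cell at high and coordinated levels, and their mRNAs typically begin with a terminal oligopyrimidine (TOP) tract through which mTORC1 signalling controls their translation. In the intestine, proliferating crypt cells and secretory cells have a high demand for protein synthesis. Several ribosomal proteins have paralogs that can differ in tissue distribution, among them Rpl22 with Rpl22l1 and Rps27 with Rps27l.

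Start sites of some members on which the results turn are given here because the TOP tract is the sequence feature by which this gene family is known. Each sequence holds 15 bases before and 15 bases from the annotated start, read 5′ to 3′ on the coding strand, from RefSeq (GRCm38.p6). A tract was searched on the coding strand as a C followed by at least 4 bases that are each C or T, with its first C within 10 bases of the start. Where several stretches met this rule, capitals mark the one that begins nearest to the start.
Rpl37, chr15:5116598-5116627, plus strand: agtttcctgggcggaagcttatccacagga
Rpl41, chr10:128549154-128549183, minus strand: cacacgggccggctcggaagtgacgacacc
Rpl22, chr4:152325711-152325740, plus strand: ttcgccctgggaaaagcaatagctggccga
Rpl22l1, chr3:28805493-28805522, plus strand: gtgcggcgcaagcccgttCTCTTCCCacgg
Rps27, chr3:90213634-90213663, minus strand: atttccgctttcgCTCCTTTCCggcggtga
Rps27l, chr9:66946071-66946100, plus strand: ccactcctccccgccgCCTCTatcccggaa
Rps12, chr10:23787195-23787224, minus strand: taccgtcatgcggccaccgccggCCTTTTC
Rps2, chr17:24720048-24720077, plus strand: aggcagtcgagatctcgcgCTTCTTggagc
Rps3a1, chr3:86142654-86142683, minus strand: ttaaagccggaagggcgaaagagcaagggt

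The table of start regions held 57 of the 66 genes. Among those it lacked were Rpl29, Rps14, Rpl21, Rplp1 and Rps20, which are named in the results below. By this definition 32 of 57 members (56.1%) had a tract, against 29.8% of all 27025 genes in the table. A wider definition, a C with C or T only to a length of at least 8 and its first base within 50 bases of the start, was met by 46 of 57 members (80.7%) against 28.7% of all genes. The motif CCGGAAG, searched on both strands over the whole region of 250 bases before and 50 after the start, was present in 21 members (36.8%) against 9.12% of all genes. The Rps12 tract runs past the last base printed. The median colon minus small intestine difference, averaged over the 4 groups of mice, was 0.22 in the 26 tested members with a tract at the start and 0.28 in the 25 without one. By the wider definition it was 0.28 in the 40 members with a tract and 0.20 in the 11 without one. The order of the medians thus depended on the definition, and neither was tested. A match describes these letters alone and is not a shown site of initiation or binding.

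Ribosomal protein probes took a larger share of the array signal in colon than in small intestine. Their share of the summed linear intensity averaged 7.80% ± 0.43 in VSL#3 BALB/c colon, against 6.76% ± 0.27 in the small intestine of the same mice (SD, n = 5 each). In PBS BALB/c mice it was 7.80% ± 0.18 in colon and 6.85% ± 0.12 in small intestine. It was 7.94% ± 0.37 in colon and 6.999% ± 0.11 in small intestine of VSL#3 C57BL/6 mice. In PBS C57BL/6 mice the 5 colon arrays lay between 7.52% and 8.22%, and the 5 small intestine arrays between 6.77% and 7.31%. The lowest colon array, at 7.35%, lay above the highest small intestine array, at 7.31%. Between 11898 and 13518 of 25697 probes were detected on each array, and genes that mark the tissues (Sis, Fabp6 and Aqp8) and the strain (H2-Ea) separated the arrays as labelled. Pancreatic acinar markers set 3 colon arrays apart, those of VSL#3 BALB/c mice 4 and 5 and PBS C57BL/6 mouse 3, and counts without these arrays are given with the results. P-values measure the spread between mice, and probes may also bind near-identical pseudogene copies, which was not tested.

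**Figure D1:**
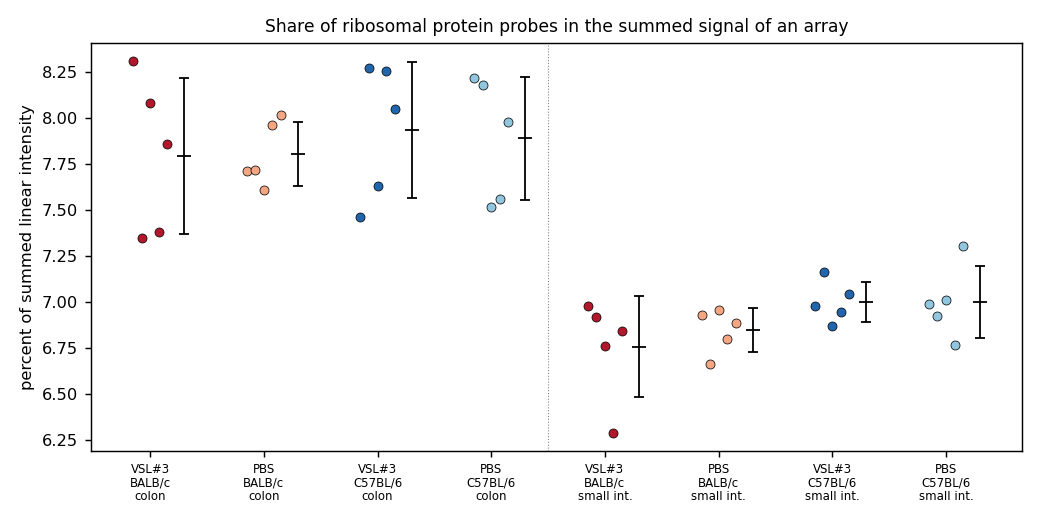
Percent of each array's summed linear intensity that falls on the ribosomal protein probes (vertical axis), for the 8 groups (horizontal axis, colon left of the dotted line). Points are single arrays and bars the mean with its SD (n = 5). Every colon array lies at or above 7.35%, and every small intestine array at or below 7.31%.

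More than 30 of the 59 members were called higher in colon than in small intestine in each strain and under each treatment, a count that depended on the normalization. Of 59 members, 36 were higher and 0 lower in colon of VSL#3 BALB/c mice, where 21.1% of all 10715 genes tested were called higher, 17.7% lower and 38.8% in either direction. The counts were 36 higher and 0 lower in PBS BALB/c mice (22.1% of all genes higher, 16.1% lower, 38.2% called), 34 higher and 1 lower in VSL#3 C57BL/6 mice (23.1%, 17.2% and 40.3%) and 31 higher and 1 lower in PBS C57BL/6 mice (22.9%, 16.9% and 39.8%). The tissues did not overlap for 21, 28, 24 and 20 members in the same order, against 25.5%, 23.4%, 24% and 23.1% of all genes. The test was limma on each mouse's colon minus small intestine difference, with a Benjamini-Hochberg adjusted p under 0.05 over all genes. Median member differences were 0.26, 0.29, 0.25 and 0.24 in the same order, against all-gene medians of 0.01, 0.03, 0.03 and 0.04. A total of 24 members (40.7%) was called higher in all 4 groups, against 13.6% of all genes, and 46 (78%) in at least 1, against 33.4%. Rps12 was the 1 member called lower in any group (1.69% against 26.9% of all genes), and 12 members (20.3%) were called in none, against 40.4%. In single mice, between 45 and 55 of the 59 members were higher in colon. By signal, the 14 members above a mean of 14 had a median difference over the 4 groups of 0.35, the 26 between 12 and 14 one of 0.26, and the 19 at 12 or less one of 0.14. The last class holds members near background, such as Rpl14 (mean 4.90), detected on 8 of 40 arrays.

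Median scaling of the arrays in place of quantile normalization lowered these counts to 14, 23, 17 and 16 called members and the medians to 0.17, 0.22, 0.19 and 0.16. The members called higher were then 14, 23, 16 and 15, or 23.7%, 39%, 27.1% and 25.4% of the 59, against 19%, 25.3%, 24.5% and 24.3% of all genes. The share of members called higher was thus near that of all genes under this scaling, apart from PBS BALB/c mice. All-gene medians were 0.01, 0.09, 0.07 and 0.08. Rplp1, an acidic stalk protein of the large subunit, differed by 0.38 in PBS BALB/c mice and by 0.16 with median scaling (adjusted p = 0.158, limma). Rpl41 illustrates the effect of rank on the strongest probes, because its normalized signal was the same, 15.32, in all 5 VSL#3 BALB/c colon arrays.

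Members of both subunits were called higher. In PBS BALB/c mice 15 of 22 small subunit proteins and 21 of 32 large subunit proteins were called higher in colon, with medians of 0.30 and 0.31. In PBS C57BL/6 mice the numbers were 12 of 22 and 18 of 32, with medians of 0.24 and 0.25. Among the 5 paralogs and related proteins, at most 1 was called higher in any group.

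In BALB/c mice the largest differences were those of Rpl22 and Rpl37. In C57BL/6 mice Rps19, a small subunit protein, led under VSL#3 (0.49) and Rpl22 under PBS. Rpl37, a zinc-binding protein of the large subunit, had signals of 14.40 to 14.64 in VSL#3 BALB/c colon (median 14.53) and 13.60 to 13.94 in the small intestine of these mice (median 13.78). In PBS BALB/c mice its signals were 14.42, 14.44, 14.44, 14.58 and 14.61 in colon and 13.63, 13.67, 13.76, 13.78 and 13.81 in small intestine. The tissues did not overlap in these groups. Its log2 difference was 0.74 (SE 0.08, adjusted p = 1.86e-07) in VSL#3 BALB/c and 0.77 (SE 0.08, adjusted p = 1.11e-07) in PBS BALB/c mice, and it was 0.47 and 0.42 in VSL#3 and PBS C57BL/6 mice. Rpl22, an RNA-binding protein of the large subunit, differed by 0.76 (SE 0.12) in VSL#3 BALB/c, 0.73 in PBS BALB/c, 0.46 in VSL#3 C57BL/6 and 0.53 in PBS C57BL/6 mice. Rpl9, a large subunit protein, differed by 0.41 to 0.53 over the 4 groups.

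**Figure D2:**
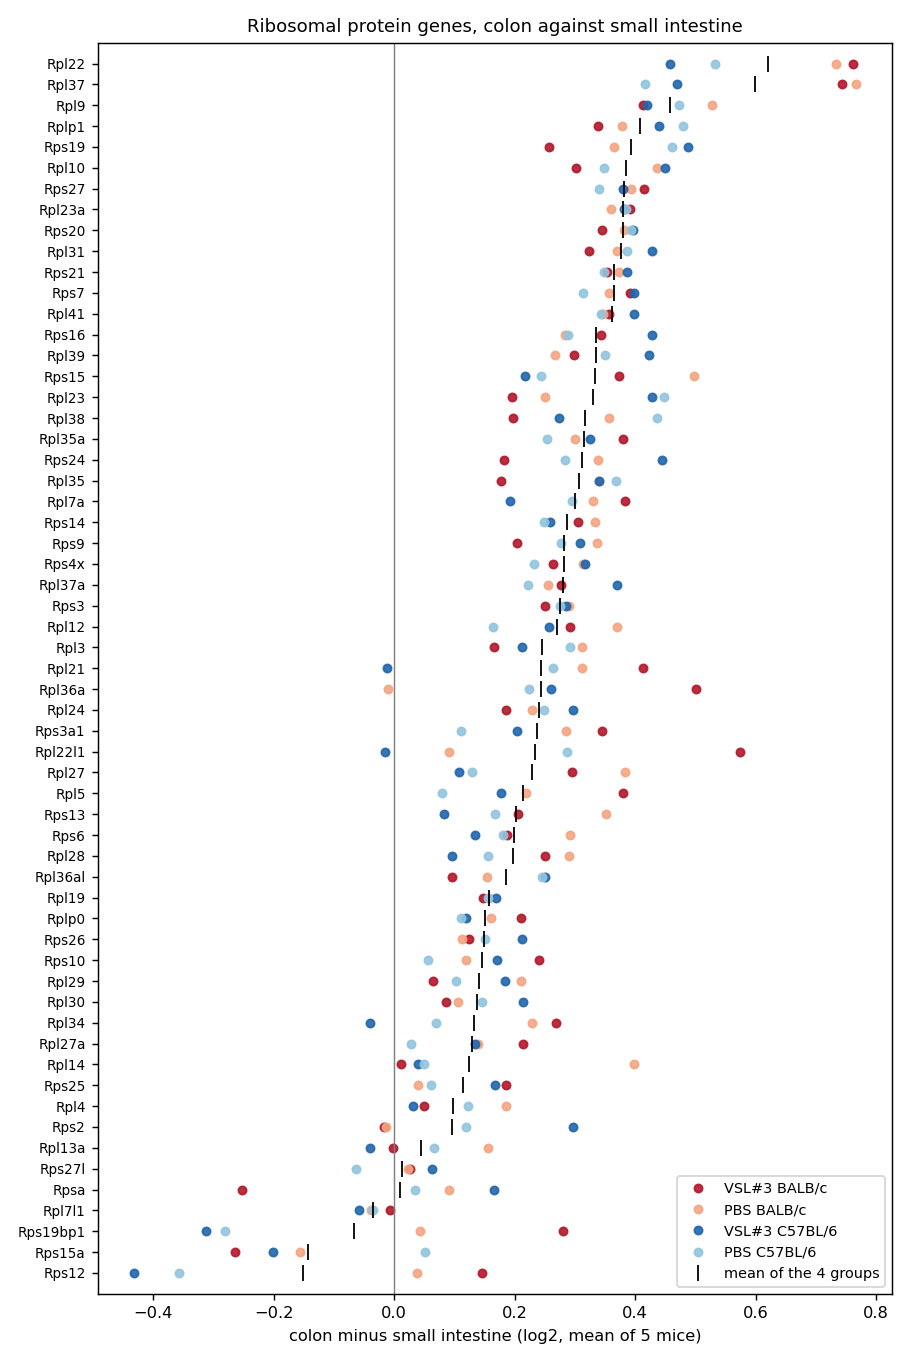
Colon minus small intestine difference of each of the 59 members (vertical axis, ordered by the mean over groups) on the log2 scale (horizontal axis), with 1 point for each of the 4 groups of 5 mice and a tick for their mean. Most points lie right of 0, with Rpl22 and Rpl37 farthest to the right and Rps12 in C57BL/6 mice farthest to the left.

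A set of 23 members was higher in colon in all 20 mice, or 38.98% of the 59, against 12.05% of all genes. Rpl41, Rplp1, Rps14, Rps19, Rps20 and Rps27 belong to it. In contrast, Rps12, a small subunit protein, was lower in colon in C57BL/6 mice by -0.43 (SE 0.09, adjusted p = 0.000787) under VSL#3 and -0.36 (adjusted p = 0.00393) under PBS. In BALB/c mice it differed by 0.15 and 0.04 under VSL#3 and PBS, both short of the threshold. Members with no call in any group included Rps27l, Rpl7l1, Rpl4, Rpl13a and Rps25. Rpl14, Rpsa, Rpl21, Rps15a and Rps19bp1 also had none. Their probes were dim, with mean signals of 4.90 to 5.93, and such probes can miss a difference.

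Paralogs with known partners were described pair by pair. Rps27, a zinc finger protein of the small subunit, had signals of 13.77, 13.92, 13.94, 13.96 and 14.03 in PBS BALB/c colon and 13.41, 13.49, 13.57, 13.58 and 13.60 in PBS BALB/c small intestine. Its difference was 0.42, 0.39, 0.38 and 0.34 in VSL#3 BALB/c, PBS BALB/c, VSL#3 C57BL/6 and PBS C57BL/6 mice (adjusted p = 0.000154, 0.000266, 0.000362 and 0.00105). For Rps27l, its p53-induced paralog, the differences in the same order were 0.03, 0.02, 0.06 and -0.06, with none past the threshold and a SE of 0.09. Rpl22l1 differed by 0.57 (SE 0.13, adjusted p = 0.00159) in VSL#3 BALB/c mice and by 0.09, -0.02 and 0.29 in the other groups, short of the threshold. Whether 2 paralogs differ from each other was not tested.

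**Figure D3:**
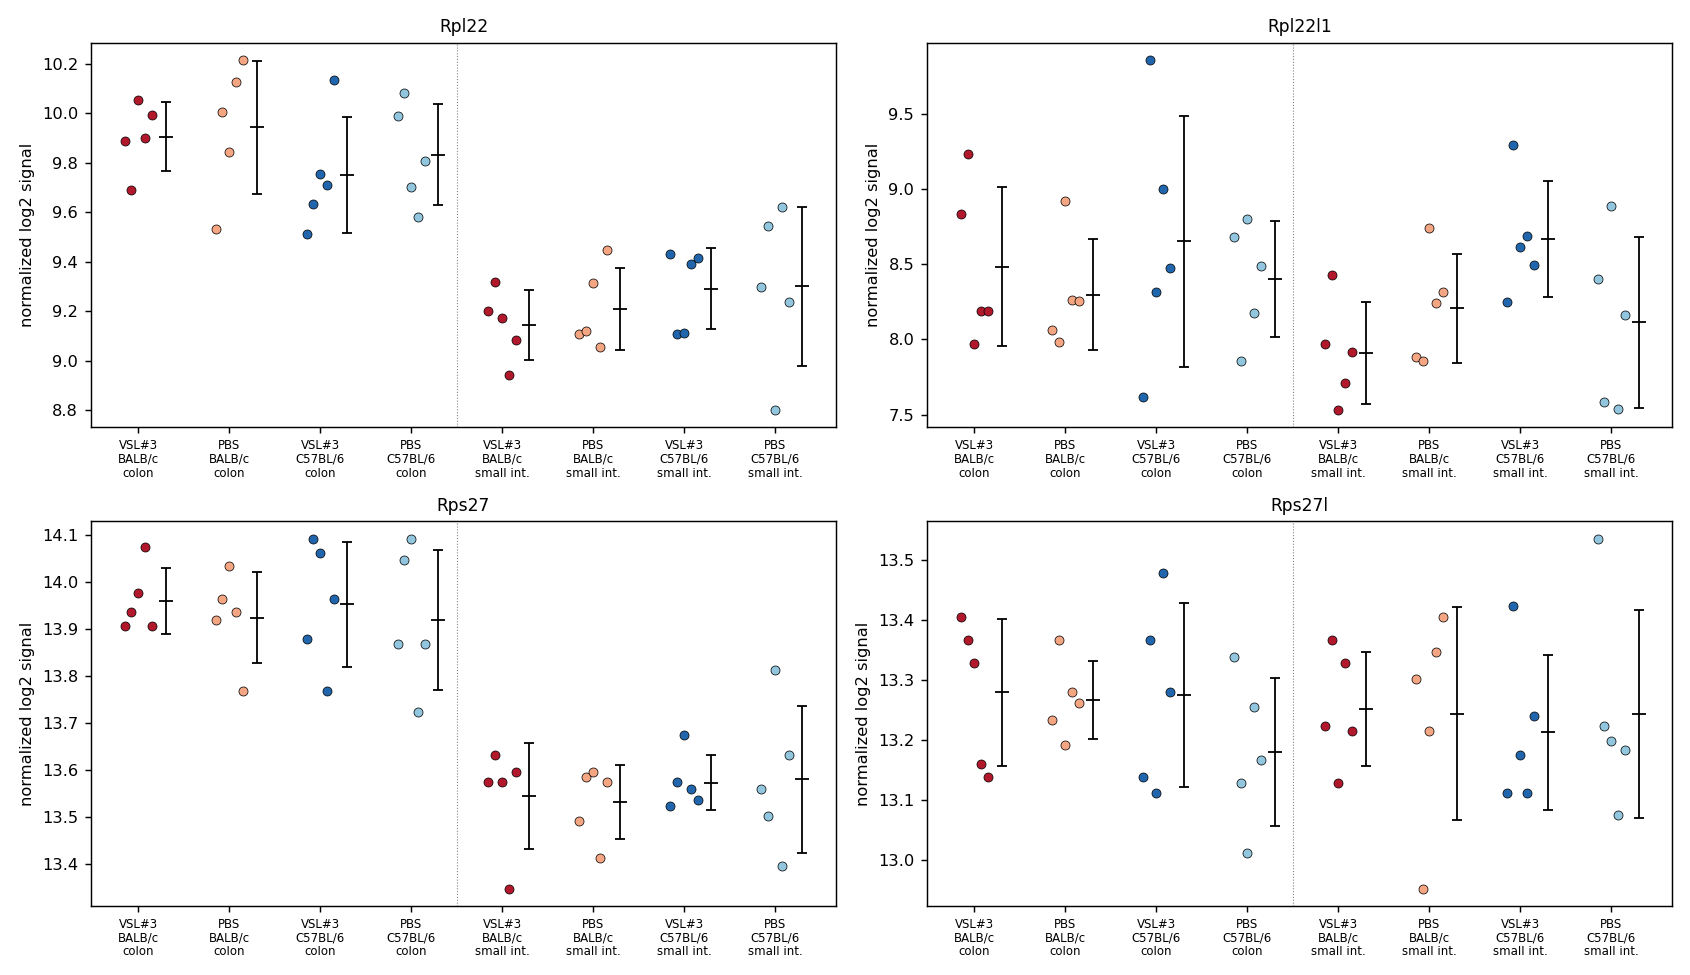
Normalized log2 signal (vertical axis) of Rpl22, Rpl22l1, Rps27 and Rps27l in the 8 groups (horizontal axis, colon left of the dotted line), with points for arrays and bars for the mean with its SD (n = 5). Colon lies above small intestine for Rpl22 and Rps27, while the Rps27l means lie between 13.18 and 13.28 throughout.

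Second probes did not always repeat a member's difference. The shown probe of Rpl38 differed by 0.20 to 0.44 between tissues over the 4 groups, and its second probe by -0.31 to -0.17. For Rps24 the second probe stood at -0.13, 0.17, -0.31 and -0.16, against 0.18, 0.34, 0.44 and 0.28 for the shown probe.

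Genes related to the ribosome by function were counted in the same contrasts. Of 19 further genes with a TOP tract in their mRNA, 6, 9, 3 and 6 were called higher in colon in VSL#3 BALB/c, PBS BALB/c, VSL#3 C57BL/6 and PBS C57BL/6 mice, and 0, 0, 0 and 1 lower, where 21.1%, 22.1%, 23.1% and 22.9% of all genes were called higher. Among them Vim had the smallest p in both BALB/c groups, at 0.92 in VSL#3 and 0.93 in PBS mice. Eef2, the translocation factor of elongation, differed by 0.38 in VSL#3 BALB/c and 0.37 in PBS BALB/c mice. In PBS C57BL/6 mice Vim (0.22) and Eef2 (0.15) did not pass the threshold. Of 42 ribosome assembly factors, 3, 4, 7 and 5 were higher and 12, 4, 4 and 1 lower. More were lower than higher in VSL#3 BALB/c mice only. The shares of all genes called higher and lower in each group are given above with the members. The 4 with the smallest p in VSL#3 BALB/c mice were Sbds, which frees the large subunit for joining, at 0.56, and Heatr1, Gar1 and Bop1, which act in ribosomal RNA production and processing, at -0.51, -0.46 and -0.48. Of 13 genes of mTORC1 signalling, 2, 5, 3 and 3 were higher, against 21.1%, 22.1%, 23.1% and 22.9% of all genes. Lower were 0, 1, 1 and 1. These counts do not separate genes that promote the pathway from genes that restrain it, and give no direction of signalling. In PBS BALB/c mice, the group with the most calls, the 5 higher were Ddit4 (0.83), Mlst8 (0.32), Tsc2 (0.30), Mtor (0.31) and Rheb (0.25). All had a smaller p than the lower one. The lower one was Eif4ebp1, a repressor of cap-dependent translation (-0.44, adjusted p = 0.0281, limma).

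Markers of cell types also differed between colon and small intestine. Smooth muscle markers were higher in colon (7 or 8 of 10 called), with a mean log2 level of 10.59 to 11.32 over all colon arrays and 9.38 to 10.49 over all small intestine arrays. All 10 measured enterocyte markers were lower in colon in each group. Pancreatic acinar markers had a mean log2 level of 6.28 to 13.39 in colon, against 5.65 to 6.18 in small intestine. The 3 colon arrays set apart had acinar levels of 13.39, 12.94 and 12.89, the next being 10.71. Without these 3 arrays the numbers of members called between tissues were 24, 37, 35 and 28, with medians of 0.24, 0.29, 0.25 and 0.23. T cell markers were called lower for 8 to 9 of 10. Of 5 Paneth cell markers, 5, 4, 4 and 4 were lower in colon in VSL#3 BALB/c, PBS BALB/c, VSL#3 C57BL/6 and PBS C57BL/6 mice. Of 15 cell cycle genes, 5, 8, 2 and 3 were lower and 0 higher, opposite in direction to most members called. Of the adipocyte markers, Cidec (-2.19) and Lpl (-1.29) had the smallest p in VSL#3 BALB/c mice. The part of muscle, fat, epithelial, Paneth, proliferating or immune cells in the members' differences was not tested.

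A few members separated the strains by a large margin in both tissues. Between BALB/c and C57BL/6 mice, 7 of 59 members were called in VSL#3 colon (1 higher and 6 lower in BALB/c, against 11.1% of all 9833 genes called, 5.36% higher and 5.74% lower) and 7 in PBS colon (1 higher, 6 lower, against 11.8%, 6.08% and 5.76%). In small intestine 7 of 58 were called in VSL#3 mice (0 higher, 7 lower, against 12.5%, 6.49% and 6.06% of 9634 genes) and 6 in PBS mice (0 higher, 6 lower, against 10.9%, 5.26% and 5.66%). The shares called in either direction are near those of all genes. Most members called were lower in BALB/c, whereas the calls over all genes were split nearly evenly, a contrast that was not tested. The strains did not overlap for 5, 6, 7 and 7 members in VSL#3 colon, PBS colon, VSL#3 small intestine and PBS small intestine, against 9.94%, 9.7%, 11.3% and 8.86% of all genes. The same 4 members, Rpl29, Rps14, Rps2 and Rps3a1, were lower in BALB/c in all 4 comparisons, and 11 members were called in at least 1. Without the 3 acinar-high arrays, 5 members were called in VSL#3 colon and 5 in PBS colon.

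Rps2, a small subunit protein at the mRNA entry, had signals of 12.27, 12.42, 12.45, 12.49 and 12.52 in PBS BALB/c colon, against 13.41, 13.46, 13.49, 13.94 and 13.98 in PBS C57BL/6 colon. No BALB/c array reached a C57BL/6 array. The difference was -1.32 (SE 0.13) in VSL#3 colon, -1.23 (SE 0.13, adjusted p = 1.06e-06) in PBS colon, -1.003 in VSL#3 small intestine and -1.09 in PBS small intestine. Rps3a1, another small subunit protein, differed by -1.24, -0.90, -1.38 and -1.07 in the same order. In PBS colon its signals were 10.07 to 10.65 in BALB/c and 10.97 to 11.86 in C57BL/6 mice. Rps2 and Rps3a1 each had a single probe, and the limit on sequence differences given below for Rpl29 applies to both.

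Rpl29, a large subunit protein, differed by -1.05, -0.90, -0.93 and -1.004 with the shown probe, in VSL#3 colon, PBS colon, VSL#3 small intestine and PBS small intestine. Its second probe had mean levels of 5.22 ± 0.34, 5.21 ± 0.54, 5.49 ± 0.23 and 5.31 ± 0.45 in BALB/c mice, against 10.48 ± 0.15, 10.47 ± 0.23, 10.30 ± 0.21 and 10.23 ± 0.13 in C57BL/6 mice (SD, n = 5 each). That probe was detected on 3, 3, 5 and 2 of 5 BALB/c arrays and on all 5 C57BL/6 arrays of each comparison. The 2 probes of the gene thus gave the same direction and unequal sizes. A sequence difference between the strains under a probe cannot be told apart from a difference in level, as the probe sequences were not used here.

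Rps12 ran the other way, and in colon. In VSL#3 mice its signals were 14.32, 14.33, 14.36, 14.36 and 14.40 in BALB/c colon, against 13.34, 13.52, 13.56, 13.95 and 13.99 in C57BL/6 colon. The strains did not overlap, with a difference of 0.68 (SE 0.11, adjusted p = 0.000105) in VSL#3 and 0.57 (SE 0.11, adjusted p = 0.000707) in PBS mice. In small intestine the differences of 0.10 and 0.18 did not pass the threshold. Averaged over both treatments, the colon minus small intestine difference was larger in BALB/c than in C57BL/6 mice for Rps12 (0.49, SE 0.09, adjusted p = 0.00198), Rpl37 (0.31, SE 0.08, adjusted p = 0.0187) and Rpl27 (0.22, SE 0.07, adjusted p = 0.0483), 3 of 59 members where 7.91% of all genes were called. In PBS mice alone limma called 0 of 59 members, with 4 at an unadjusted p under 0.05, and 2.96% of all genes.

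**Figure D4:**
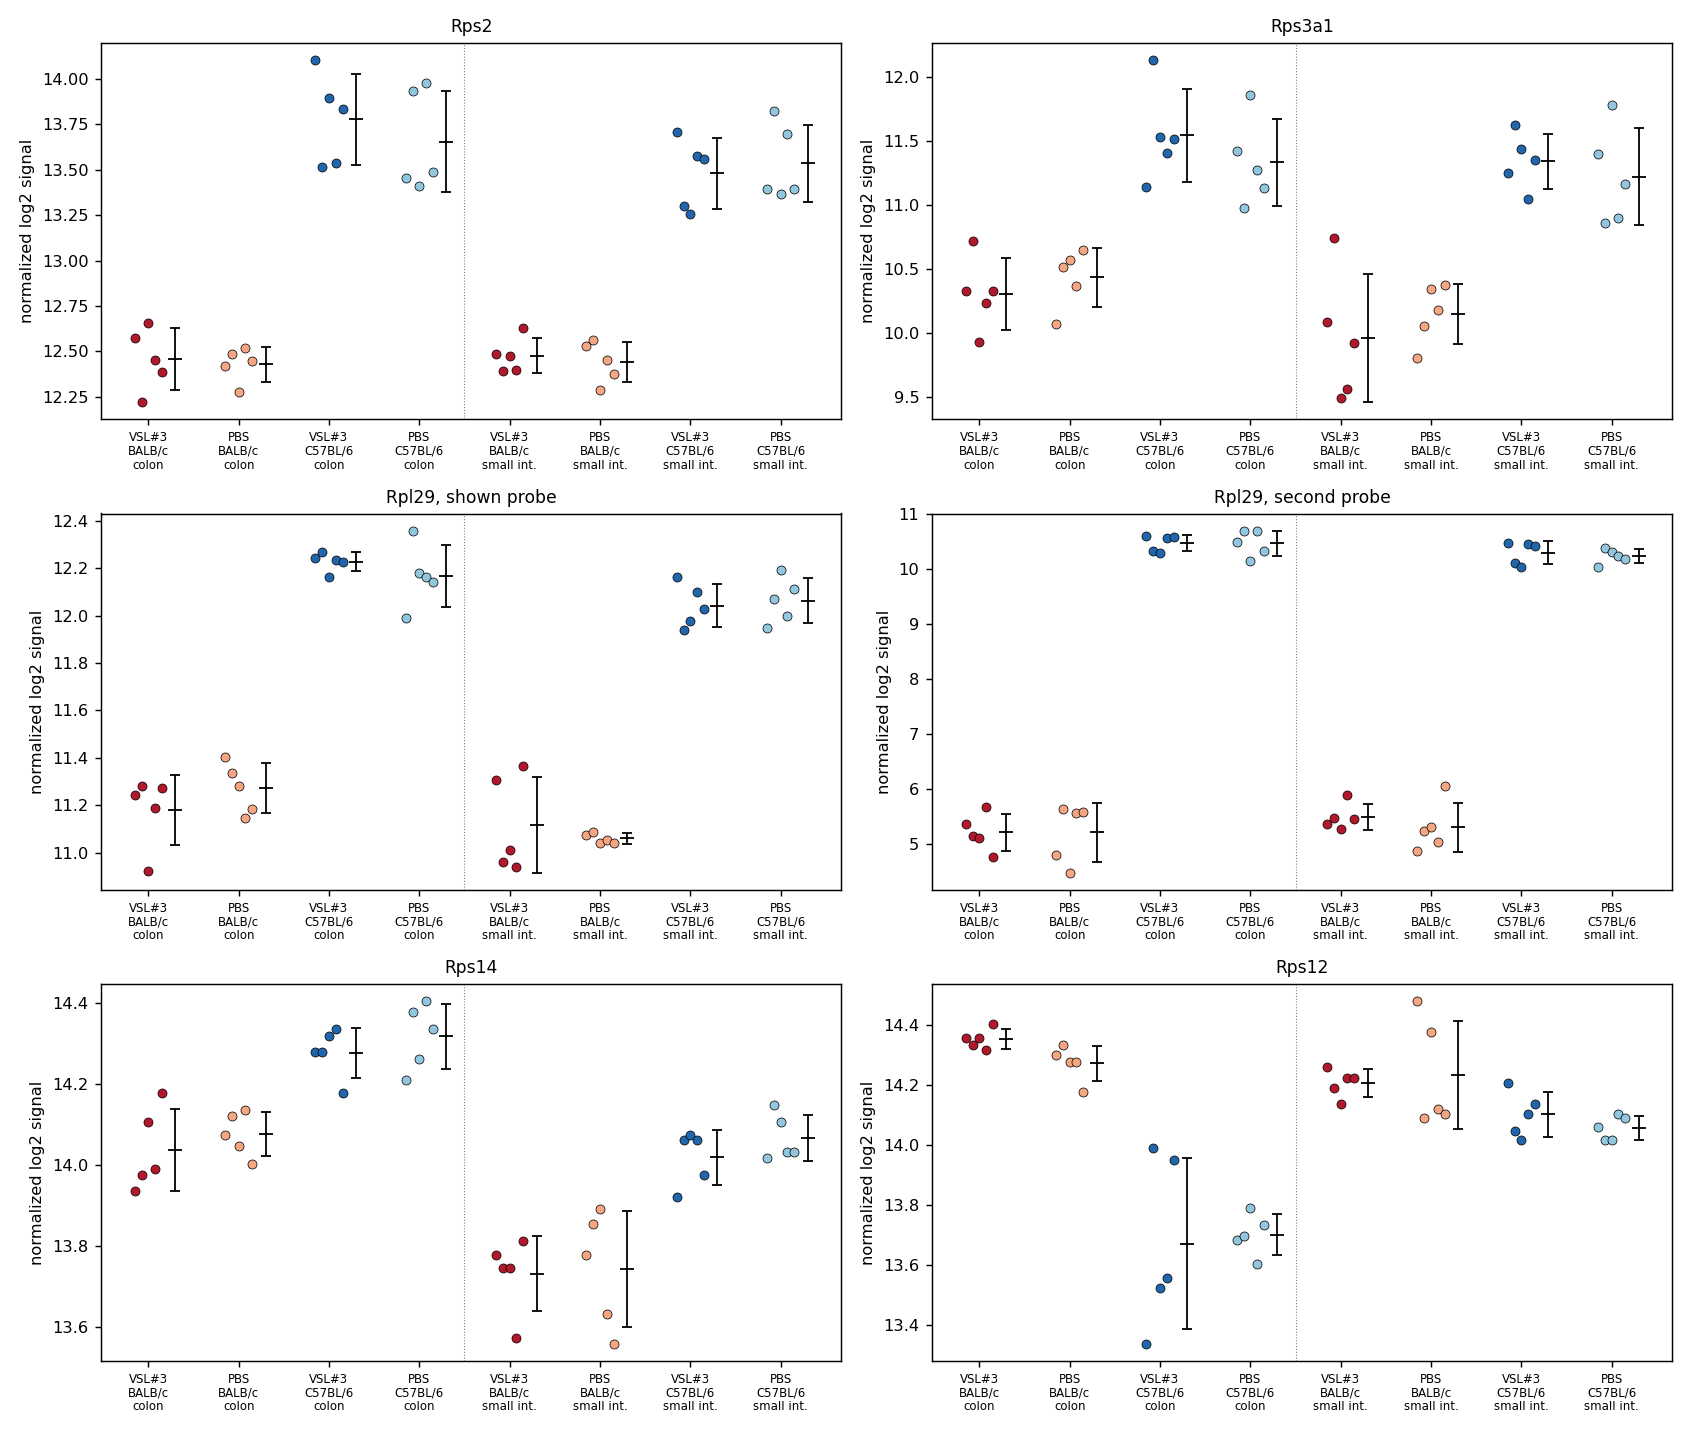
Normalized log2 signal (vertical axis) of Rps2, Rps3a1, both probes of Rpl29, Rps14 and Rps12 in the 8 groups (horizontal axis, colon left of the dotted line), with points for arrays and bars for the mean with its SD (n = 5). BALB/c arrays lie below C57BL/6 arrays for Rps2, Rps3a1 and Rpl29, and above them for Rps12 in colon.

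Strain differences of the other members called were smaller or were not called in every comparison. Rps14, an RNA-binding small subunit protein, differed by -0.24 in VSL#3 colon (adjusted p = 0.0492), -0.24 in PBS colon (adjusted p = 0.0464), -0.29 in VSL#3 small intestine and -0.32 in PBS small intestine. With the replicate number as a block the calls in colon were lost (adjusted p = 0.0853 and 0.0824). Rplp0, the stalk base protein often used for normalization, was lower in BALB/c by -0.40 in PBS colon, -0.31 in VSL#3 small intestine and -0.45 in PBS small intestine, and differed by -0.22 in VSL#3 colon without passing the test. Rpl21, a large subunit protein, was lower in BALB/c by -0.50 in PBS colon and -0.76 in VSL#3 small intestine. Its shown probe was dim (mean 5.63) and was detected on 1 of 5 VSL#3 BALB/c small intestine arrays. A second dim Rpl21 probe differed by -0.65 in PBS colon and -0.68 in VSL#3 colon (limma adjusted p over probes = 0.0120 and 0.00888). In VSL#3 small intestine that probe differed by only -0.21 (limma adjusted p over probes = 0.603). A second, dim Rplp0 probe was not well above background on any BALB/c array, and was at least 1.34-fold lower in BALB/c than in C57BL/6 in VSL#3 colon (measured means 4.70 and 5.52, limma adjusted p over probes = 0.000508). Rpl37 was called in PBS small intestine (-0.34), Rpl30 and Rps9 in VSL#3 colon (-0.32 each) and Rpl22l1 in VSL#3 small intestine (-0.76). A second Rps9 probe of similar signal (mean 12.55, against 12.63 for the shown one) gave larger differences. They were -0.84 in VSL#3 colon and -0.72 in VSL#3 small intestine (limma adjusted p over probes = 0.00372 and 0.00297). In PBS colon and PBS small intestine they were -0.50 and -0.44, short of the threshold.

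VSL#3 changed no member past the threshold in either strain or tissue. Limma called 0 of 59 members in BALB/c colon and in C57BL/6 colon, and 0 of 58 in BALB/c and in C57BL/6 small intestine, where 0% of all genes were called. At an unadjusted p under 0.05 there were 2, 2, 0 and 1 members in these comparisons, among 337, 633, 592 and 407 genes. VSL#3 and PBS groups did not overlap for 0, 1 (Rpl30), 0 and 0 members, against 0.6%, 0.864%, 0.862% and 0.623% of all genes. The median member differences between VSL#3 and PBS were -0.02, 0.05, 0.02 and 0.00, and the median SE of a member was 0.10. A difference above that SE could still miss the threshold, as Rpl21 at -0.38 (SE 0.14) in C57BL/6 colon did, with an adjusted p of 0.677 from limma.

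None of the members with the smallest p passed the test. In BALB/c colon Rps19bp1 differed by 0.42 (SE 0.20) and Rpl36a, a large subunit protein, by 0.37 (SE 0.18), with an adjusted p of 0.998 each. In C57BL/6 colon, beside Rpl21, Rpl30 differed by 0.19 (SE 0.09, adjusted p = 0.767). In small intestine Rpl22l1 differed by -0.30 (SE 0.24) in BALB/c and 0.55 (SE 0.24, adjusted p = 0.998) in C57BL/6 mice. Its signals were 8.25, 8.50, 8.61, 8.69 and 9.29 in VSL#3 C57BL/6 small intestine, against 7.54, 7.58, 8.16, 8.40 and 8.89 in PBS C57BL/6 small intestine, so that the groups overlapped. The difference of its VSL#3 effect between the strains, -0.85 (SE 0.35), had an adjusted p of 0.848. No member was called for such a difference in either tissue, with 0 in colon and 1 in small intestine at an unadjusted p under 0.05. Rps6, the target of S6 kinase, differed by -0.17 (SE 0.09) in C57BL/6 colon and -0.12 (SE 0.09) in C57BL/6 small intestine. In BALB/c mice it differed by -0.07 in colon and 0.04 in small intestine, and none of these values passed the threshold.

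**Figure D5:**
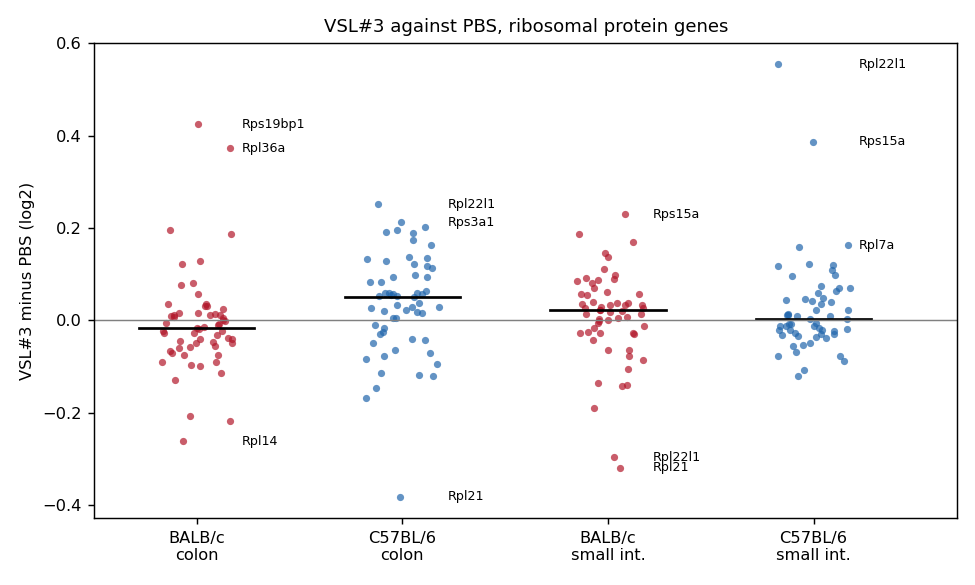
VSL#3 minus PBS difference on the log2 scale (vertical axis) for the members tested in each strain and tissue (horizontal axis), with points for genes, horizontal spread for display, and a line at the median. The medians lie between -0.02 and 0.05, and the 3 genes farthest from 0 are named.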

How the data were processed

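RNA of 40 samples (500 ng, 750 ng of labelled product per array, per the labels) was measured on 1 array each. The deposited table gives a linear intensity per probe that is not normalized between arrays and holds 21.4% to 25.1% negative values per array, and beside it a deposited detection value, 1 minus the detection p-value. The authors' deposited log2 table is quantile-normalized. Its 10 VSL#3 colon columns followed the arrays of the other strain, so it served for small intestine only. Limma is listed, with no version, per the submitters' processing notes.

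Intensities were corrected and normalized with limma neqc (offset 16, limma 3.58.1 in R 4.3.3). Each gene took its kept probe with the highest mean. Each tissue was fitted over 20 arrays as 4 group means, and tissues were compared on the differences within mice, as both tissues of a mouse share its code. P-values are limma's with Benjamini-Hochberg adjustment over all genes. Replicates are separate mice. Same-numbered mice of different groups deviated together (r over 0.1) in 0 to 4 of 5 pairs. The highest count was that of PBS and VSL#3 BALB/c colon (mean r 0.164). Colon and small intestine of the same mouse did so in 13 of 20 pairs (mean r 0.157). This criterion therefore cannot decide whether the number marks pairing. The number was not taken as pairing in the main fits, and results with it as a block are given in the closing section. The steps were tested on simulated data. Members and lists were chosen with earlier results of these data known. Named in each contrast were up to 12 members with the largest rise and 12 with the largest fall among those called, the 5 with the smallest p where under 5 were called, Rplp0, Rps6, Rpsa, Rpl22, Rps27 and kept paralogs, members with kept probes over 1 log2 unit apart, and of the other lists the 4 genes with the smallest p where 5 or more were called; the text gives a selection of these. Rps25, Rpl4, Rpl13a, Rpl14, Rps15a and the second probes of Rps3, Rps9 and Rpl23 were chosen after values were seen. So were the start sites and the motif definitions. Alternatives are described in the closing section. Precision is limited by the number of arrays.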

Additional observations from a re-analysis of the deposited data

Results flagged for a closer look

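Several members had an array apart from the other 4 of its group by Dixon's criterion at the 95% level. Rpl29 stood at 10.92 in VSL#3 BALB/c colon mouse 3, against 11.19 to 11.28 in the other mice. Rpl30 stood at 11.05 in VSL#3 BALB/c colon mouse 1, against 10.73 to 10.81. Rpl7l1 stood at 8.81 in PBS BALB/c colon mouse 2, against 8.31 to 8.45. In VSL#3 BALB/c small intestine mouse 4, Rps14 stood at 13.57 against 13.75 to 13.81, and Rps27 at 13.35 against 13.57 to 13.63. These are 5 of 168 groups examined, or 2.98%, and chance flags about 5%. The colon minus small intestine difference differed between the strains by a test of that difference for Rps12 (0.49), Rpl37 (0.31) and Rpl27 (0.22), averaged over both treatments, a comparison added after seeing the data.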

How the results depend on the processing

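Median scaling moved the results most. It gave member medians of 0.0592 for VSL#3 minus PBS in BALB/c colon, 0.0744 for the difference of that effect between strains in colon, 0.0915 for the strain difference in VSL#3 colon, 0.110 for VSL#3 minus PBS in BALB/c small intestine, 0.156 for the difference between strains there, and 0.0989 for the strain difference in VSL#3 small intestine. It moved the median of all genes in the last 3 to 0.124, 0.147 and 0.144. Tissue medians became 0.166, 0.221, 0.194 and 0.164 and tissue counts 14, 23, 17 and 16, in VSL#3 BALB/c, PBS BALB/c, VSL#3 C57BL/6 and PBS C57BL/6 mice. Strain counts in colon became 4 in VSL#3 and 4 in PBS mice. A fit of only the compared groups gave 4 in VSL#3 colon. With every probe on its own, 11 were called in VSL#3 small intestine between strains. The PBS BALB/c tissue median was 0.261 with every probe and 0.268 with the mean of a gene's probes. Averaging over treatments gave 3 calls for the strain difference of the tissue contrast. The cause was not tested. Rpl7l1 between strains in VSL#3 small intestine reversed to -0.41 (adjusted p = 0.00464) with the mean of its probes.

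Leaving out each mouse in turn gave 4 to 6 members called between strains in VSL#3 colon and 4 to 6 in PBS colon, 4 to 8 and 5 to 7 in VSL#3 and PBS small intestine, and 29 to 37, 33 to 36, 30 to 37 and 27 to 32 between tissues in VSL#3 BALB/c, PBS BALB/c, VSL#3 C57BL/6 and PBS C57BL/6 mice. The lowest strain counts came without PBS BALB/c colon mouse 3 (4), VSL#3 BALB/c colon mouse 4 (4) and VSL#3 C57BL/6 small intestine mouse 4 (4). It gave 0 for every VSL#3 comparison. Medians ranged from -0.0667 to -0.000905 and -0.0137 to 0.00792 between strains in VSL#3 and PBS colon, -0.0685 to -0.00851 and -0.0622 to -0.0115 in VSL#3 and PBS small intestine, and 0.248 to 0.272, 0.275 to 0.300, 0.224 to 0.269 and 0.211 to 0.253 between tissues. With the replicate number as a block, 6 members were called between strains in each colon comparison, and 7 and 6 in VSL#3 and PBS small intestine. The block removed Rps14 in both colon comparisons and Rpl22l1 in VSL#3 small intestine (adjusted p = 0.0665), and changed no count by over 1.5 times. Slides were not used as a block, because the file gives none. Of the results for single named genes outside the leave-one-out fits, 2326 kept their direction and side of the threshold, 59 lost and 11 gained a call.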
